A study of Homo sapiens with 4 samples.

Results

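The miRNAs miR-192, miR-194 and miR-215 were followed in H661 cells given the histone deacetylase inhibitor entinostat, by taking from the count table each mature miRNA of those names, on both arms of the hairpin. Of the 826 mature miRNAs listed, 3 were such members, namely hsa-miR-192-5p, hsa-miR-194-5p and hsa-miR-194-3p, written below without the species prefix. The first 2 of these passed the filter on low counts and were among the 401 miRNAs tested. The opposite arm miR-192-3p and both arms of miR-215 were not analysed here. H661 is a human cell line, long in culture, that was derived from a large cell carcinoma of the lung. Entinostat is a benzamide that blocks class I histone deacetylases, the enzymes that take acetyl groups off histones. It was given at 2.5 µM for 8 h and set against the solvent dimethyl sulfoxide (DMSO), with 2 libraries for each treatment. All 4 libraries came from the same line in the same serum-supplemented medium. Library totals ran from 547875 to 938559 miRNA counts.

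Each miRNA is cut from a hairpin precursor. One arm usually becomes the stable guide, which finds messenger RNAs through its seed, bases 2 to 8 from the 5′ end. In human cells miR-194 is made from 2 hairpins, 1 beside miR-192 and 1 beside miR-215, so each locus yields a miR-192/215 type and a miR-194 type product from neighbouring hairpins. These miRNAs are known as abundant products of liver, intestinal and kidney epithelium, where hepatocyte nuclear factors drive them, and as p53-responsive miRNAs that slow the cell cycle. In other work miR-192 has been tied to the repressor ZEB2, and miR-194 to the adhesion protein N-cadherin.

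The mature sequences show which names share a target-finding seed and which can be confused with each other. They are from RefSeq (GRCh38.p14), 5′ to 3′, with the seed in capitals.
miR-192-5p: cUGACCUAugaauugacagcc
miR-215-5p: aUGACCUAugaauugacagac
miR-194-5p: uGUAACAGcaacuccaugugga
miR-194-3p: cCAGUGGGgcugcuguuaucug
The seed of miR-192-5p was shared with miR-215-5p and with no other of the 2370 mature names in the RefSeq table. The 2 miRNAs are alike at 19 of 21 bases. Counted from 1 at the 5′ end of miR-192-5p, the differences to miR-215-5p are C1A and C20A. Both lie outside the seed and near the ends, and no rule for reads that fit several miRNAs is given in the sources used here, so a count under the name miR-192-5p is uncertain as to which of these miRNAs it came from. The seeds of miR-194-5p and miR-194-3p each belonged to that miRNA alone in the table.

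The hairpins show from which locus each count could come. Capitals mark the mature arms that RefSeq annotates.
MIR194-2: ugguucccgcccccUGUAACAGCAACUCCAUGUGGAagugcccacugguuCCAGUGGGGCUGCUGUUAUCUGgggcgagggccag
MIR192: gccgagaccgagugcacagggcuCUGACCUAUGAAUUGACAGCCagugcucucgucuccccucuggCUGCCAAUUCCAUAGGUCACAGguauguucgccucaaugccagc
MIR194-1: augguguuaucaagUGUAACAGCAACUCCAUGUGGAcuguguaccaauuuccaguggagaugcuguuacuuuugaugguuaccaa
MIR194-2 (chr11:64891355-64891439) and MIR192 (chr11:64891137-64891246) both lie on the minus strand, within an exon of the long non-coding RNA gene MIR194-2HG in GENCODE release 29 (GRCh38). There are 108 bases between them, and MIR194-2 comes first in the direction of transcription. MIR194-1 (chr1:220118157-220118241) lies 194 bases before MIR215 (chr1:220117853-220117962), on the minus strand opposite an intron of IARS2, the gene of the mitochondrial isoleucyl-tRNA synthetase. The 5p arm is identical in MIR194-1 and MIR194-2, so miR-194-5p counts cannot be assigned to a locus. The annotated miR-194-3p comes from MIR194-2, beside miR-192.

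**Figure D1:**
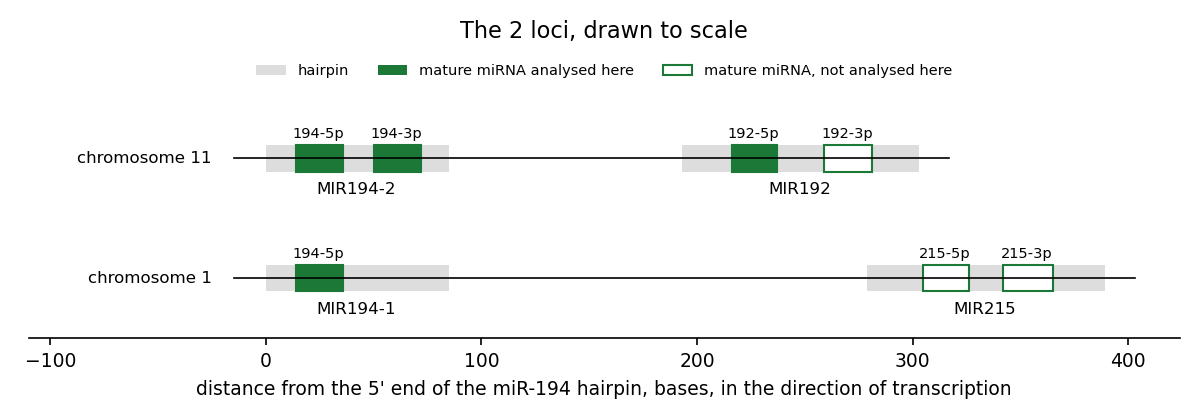
The 2 loci to scale, with distance in bases from the 5′ end of the miR-194 hairpin on the horizontal axis. Grey boxes are hairpins, filled boxes mature miRNAs analysed here and open boxes those not analysed here. On chromosome 11 there are 108 bases between the hairpins, and on chromosome 1 there are 194.

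All 3 members together were a small part of the H661 miRNA pool. They held 137 and 196 counts with entinostat and 259 and 143 counts with DMSO, or 0.0250% and 0.0260% of the miRNA counts with entinostat and 0.0276% and 0.0255% with DMSO. Levels below are CPM, the count of a miRNA in every 1000000 miRNA counts of its library. They are scaled between libraries with edgeR's TMM factors, based on trimmed mean log ratios, unless called unscaled. By mean level over the 4 libraries miR-192-5p ranked 191 of 826, with 202 CPM, and miR-194-5p ranked 281, with 56.3 CPM. The median mean level of the 401 tested miRNAs was 166 CPM. Next to miR-192-5p in level stood miR-28-5p and miR-16-2-3p above it and miR-181d-5p and miR-410-3p below it, at means of 200 to 206 CPM. The range of each of these 4 over libraries overlapped that of miR-192-5p (184 to 225 CPM). Next to miR-194-5p stood let-7a-3p, miR-155-5p, miR-95-3p and miR-412-5p, at 55.9 to 57.6 CPM, again with overlapping ranges. Adapter ligation and PCR recover sequences unequally, so an order of counts need not be an order of molecules in the cell.

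The most counted member, miR-192-5p, lay lower with entinostat in both libraries, but the difference did not pass the test. It had 100 and 146 counts with entinostat and 211 and 115 counts with DMSO, which gave 184 and 192 CPM with entinostat and 225 and 205 CPM with DMSO. The treatments did not overlap, but the higher entinostat library lay closer to the lower DMSO library than the DMSO libraries lay to each other. The exact 95% intervals of the unscaled levels were 149 to 222 and 164 to 228 CPM with entinostat and 196 to 257 and 169 to 246 CPM with DMSO, so all 4 intervals overlapped. These intervals cover counting error only. As no molecular identifiers are named, PCR copies could make that error larger than the intervals show. The mean was 188 ± 5.93 CPM with entinostat and 215 ± 14.8 CPM with DMSO (SD, n = 2). The fold, entinostat over DMSO, was 0.871 (log2 fold change -0.20, SE 0.14, 95% interval -0.53 to 0.13; edgeR quasi-likelihood test, Benjamini-Hochberg adjusted p = 0.668). On the linear scale the interval ran from 0.694 to 1.09. The log2 fold change was -0.13 without DMSO replicate 1. Scaling by upper quartile factors put it at -0.08, and put the median of all tested miRNAs at 0.12, against 0.00466 with TMM. Relative to that median it was -0.20 under either scaling.

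The guide arm miR-194-5p lay higher with entinostat in both libraries, and here too the difference did not pass the test. It had 35 and 47 counts with entinostat and 46 and 28 counts with DMSO. Scaled to depth these were 64.3 and 61.9 CPM with entinostat and 49.2 and 49.8 CPM with DMSO. The treatments did not overlap, and libraries of one treatment lay closer to each other than to any of the other treatment. The exact 95% intervals of the unscaled levels were 44.5 to 88.8 and 45.9 to 83.0 CPM with entinostat and 35.9 to 65.4 and 33.1 to 72.1 CPM with DMSO, and all 4 overlapped. Each of these intervals was wider than the gap between the treatments. The mean was 63.1 ± 1.74 CPM with entinostat and 49.5 ± 0.454 CPM with DMSO (SD, n = 2). The fold, entinostat over DMSO, was 1.27 (log2 fold change 0.35, SE 0.23, 95% interval -0.19 to 0.88; edgeR adjusted p = 0.640). On the linear scale the interval ran from 0.880 to 1.84, so a change of more than 1.84-fold upward lay outside it. In a whole culture, a change in the number of cells that make a miRNA and a change in its amount per cell cannot be told apart.

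**Figure D2:**
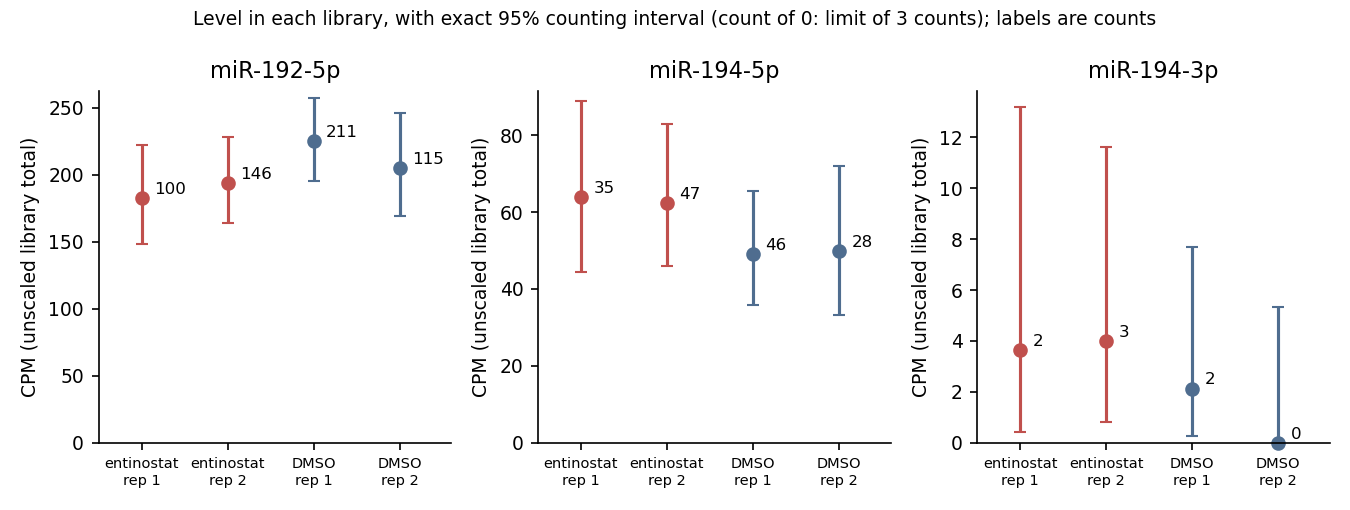
Unscaled CPM (vertical axis, from 0) of each member in each library, entinostat in red and DMSO in blue. Bars are exact 95% counting intervals, except that for the count of 0 the bar ends at the limit of 5.34 CPM that 3 counts give, and the labels are counts. The entinostat points stand below the DMSO points for miR-192-5p and above them for miR-194-5p, while all 4 bars of each miRNA overlap.

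Among all 401 tested miRNAs the edgeR test called 0 at an adjusted p under 0.05, which is 0%. On the same 401, limma-voom called 0 too, with 31 under 0.05 before adjustment. DESeq2 was run on all 826 miRNAs, without the low-count filter, and called 0, with 11 under 0.05 before adjustment. Before adjustment, 27 miRNAs (6.73%) were under 0.05 in the edgeR test, and neither miR-192-5p nor miR-194-5p was among them. By unadjusted p, miR-194-5p ranked 103 and miR-192-5p ranked 121 of 401. Libraries of the treatments did not overlap for 20.7% of all tested miRNAs on the higher side and for 20.0% on the lower side, 40.6% in all. Separation of the libraries of the kind seen in miR-192-5p and miR-194-5p was therefore common in these data.

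**Figure D3:**
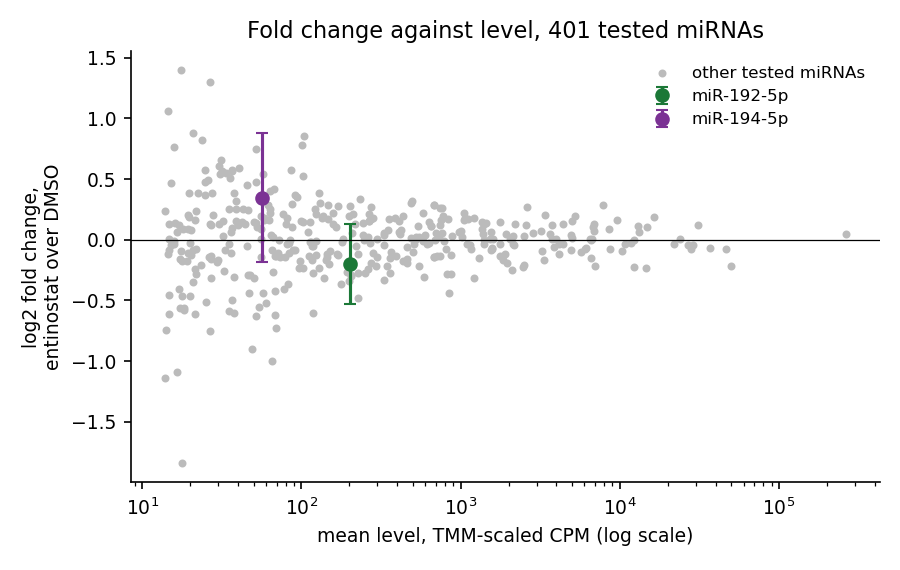
Log2 fold change, entinostat over DMSO, against mean TMM-scaled CPM (log axis) for the 401 tested miRNAs. The bars on miR-192-5p (-0.20) and miR-194-5p (0.35) are 95% intervals of the edgeR fit. Both miRNAs lie within the cloud of miRNAs of like level.

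The ratio of miR-192-5p to miR-194-5p sets the neighbouring hairpins' products against each other and does not depend on how libraries are scaled. There were 2.86 and 3.11 miR-192-5p counts per miR-194-5p count with entinostat and 4.59 and 4.11 with DMSO. Both entinostat libraries lay below both DMSO libraries. This follows from miR-192-5p lying lower and miR-194-5p higher with entinostat in both libraries, and is not a further result. How often the ratios of other miRNA pairs separate in this way was not tested. The exact 95% counting intervals were 1.93 to 4.33 and 2.22 to 4.41 with entinostat and 3.32 to 6.46 and 2.70 to 6.45 with DMSO, and all 4 overlapped. With 0.5 counts added to each miRNA, the log2 ratio was 1.56 ± 0.0874 with entinostat and 2.10 ± 0.118 with DMSO (SD, n = 2). The difference of -0.54 is a ratio 0.688 times that with DMSO. It was larger than these SDs, but with 2 libraries for each treatment the SDs are poorly known. Replicate ratios also lay closer to each other than the counting interval of either is wide. The SDs therefore do not show how well the difference is resolved. The two-sided exact permutation test over the libraries gave p = 0.333, the smallest that 2 libraries against 2 allow. The difference ran from -0.62 to -0.46 when each library was left out in turn. As miR-194-5p counts can come from either locus, this ratio is not that of a single transcript.

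**Figure D4:**
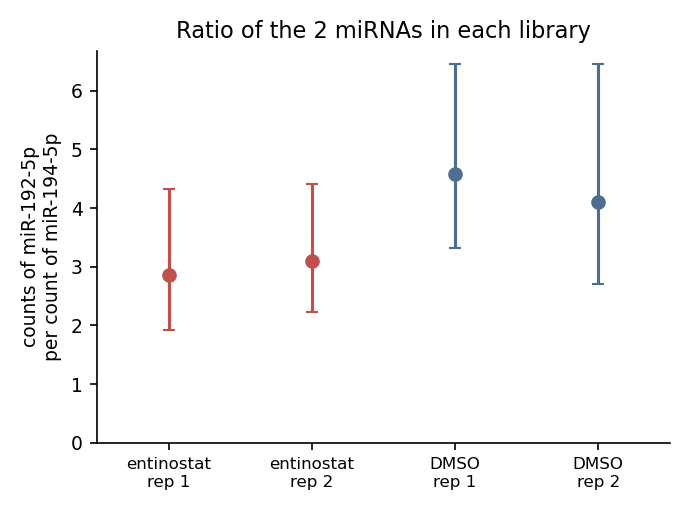
Counts of miR-192-5p per count of miR-194-5p in each library (vertical axis, from 0), entinostat in red and DMSO in blue, with exact 95% counting intervals. The entinostat libraries stand at 2.86 and 3.11 and the DMSO libraries at 4.59 and 4.11, with overlapping bars.

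The opposite arm miR-194-3p was barely detected and was not tested. It had 2 and 3 counts with entinostat and 2 and 0 counts with DMSO. These are unscaled levels of 3.65 and 3.98 CPM with entinostat and 2.13 and 0 CPM with DMSO, and the count of 0 in DMSO replicate 2 allowed up to 5.34 CPM. No difference between treatments was detectable at this depth. The 5p arm made up 94.6% and 94.0% of the miR-194 counts with entinostat and 95.8% and 100% with DMSO. Over all libraries it was 156 of 163 counts, or 95.7% (exact 95% interval 91.4 to 98.3%). The 5p counts can come from both miR-194 hairpins, while a 3p arm is annotated on MIR194-2 alone. This share is therefore not the arm share of a single hairpin. The few 3p counts carry the name of an arm annotated on the MIR194-2 hairpin, and with 7 in all they do not show how the 5p counts divide between the loci.

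Other miRNAs linked to p53 were set beside miR-192-5p and miR-194-5p. The list was miR-34a, miR-34b, miR-34c, miR-143, miR-145, miR-107, miR-15a, miR-16, miR-605 and miR-1246. It had 13 mature miRNAs in the table, of which 8 were tested and 5 were too low. None of the 8 was called (0 of 8, against 0% of all tested). Of them, 7 lay above 0 and 1 below, with a median log2 fold change of 0.29, against 208 above and 193 below with a median of 0.00466 over all 401. The median of the list was -0.045 without entinostat replicate 2, where 7 miRNAs of the list were tested. The paralogue of miR-103, miR-107, was at 981 and 1029 CPM with entinostat and 949 and 975 CPM with DMSO (log2 fold change 0.07, SE 0.10). The cell cycle regulator miR-16-5p was at 507 and 613 CPM with entinostat and 517 and 526 CPM with DMSO (log2 fold change 0.11, SE 0.13). Its opposite arm from the second hairpin, miR-16-2-3p, was at 206 and 165 CPM with entinostat and 216 and 235 CPM with DMSO (log2 fold change -0.29, SE 0.16). For miR-34b-3p, of the p53-activated miR-34 family, the levels were 75.4 and 132 CPM with entinostat and 75.9 and 92.5 CPM with DMSO (log2 fold change 0.36, SE 0.28). Of all 8 tested, the treatments did not overlap for 3 on the higher side (miR-107, miR-34c-5p and miR-145-5p) and 1 on the lower side (miR-16-2-3p), beside the 20.7% and 20.0% of all tested miRNAs. The smooth muscle miRNA miR-145-5p, named after its values were seen, lay farthest from 0 at 16.5 and 34.2 CPM with entinostat and 11.8 and 7.11 CPM with DMSO (log2 fold change 1.40, edgeR adjusted p = 0.595). The log2 fold changes of miR-192-5p (-0.20) and miR-194-5p (0.35) lay on opposite sides of 0, but the interval of the edgeR fit included 0 for each. The intervals of all tested miRNAs of this list except miR-145-5p included 0 too. The signs therefore do not set miR-192-5p or miR-194-5p apart from the list.

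**Figure D5:**
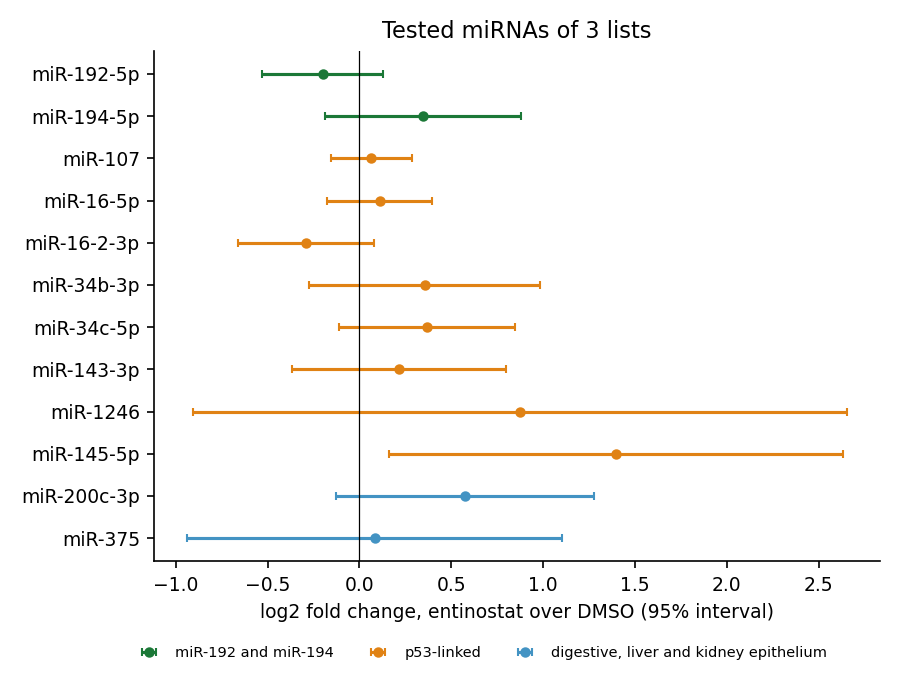
Log2 fold change, entinostat over DMSO, with the 95% interval of the edgeR fit (horizontal axis), for the tested miRNAs named for miR-192 and miR-194 and for those of the p53-linked and epithelial lists. Every interval except that of miR-145-5p includes 0, and 0 of these miRNAs were called.

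Other miRNAs of digestive, liver and kidney epithelium, the tissues for which miR-192 and miR-194 are best known, had few counts. Of 10 names, 6 had at least 1 mature miRNA in the table, 7 in all, of which 2 were tested and 0 called. Some of the names, miR-200c among them, also belong to the list of lung and other epithelium given further below. Together the 7 had 35 and 61 counts with entinostat and 66 and 23 with DMSO, fewer in each library than miR-192-5p alone. Beside miR-194-5p, with 35 and 47 counts with entinostat and 46 and 28 with DMSO, the sum was equal in entinostat replicate 1, higher in entinostat replicate 2 and DMSO replicate 1, and lower in DMSO replicate 2. The epithelial miR-200c-3p was at 42.3 and 46.1 CPM with entinostat and 33.1 and 24.9 CPM with DMSO (log2 fold change 0.57, 95% interval -0.13 to 1.28). The endocrine miR-375 was at 14.7 and 22.4 CPM with entinostat and 19.2 and 16.0 CPM with DMSO (log2 fold change 0.08, -0.94 to 1.11). The hepatocyte miRNA miR-122-5p had 0 and 0 counts with entinostat and 5 and 0 counts with DMSO. With both arms of miR-885, it makes up the hepatocyte list, whose miRNAs had 0 to 5 counts in each library. Whether this bears on the source of miR-192-5p was not tested.

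The miRNAs whose levels ran most like each member over the 4 libraries were found by the root mean square difference of log2 CPM after each miRNA was centred on its own mean, among 235 other miRNAs of 100 CPM or more. For miR-192-5p these were miR-7974 (0.0131), miR-361-3p (0.0208) and miR-877-3p (0.0228), with fold changes on the log2 scale of -0.22, -0.21 and -0.16. For miR-194-5p they were the hypoxia-induced miR-210-3p (0.0521), miR-758-3p (0.0633), which lies in the imprinted cluster at 14q32, and the NF-kB-linked miR-146b-5p (0.0638), with values of 0.27, 0.29 and 0.31. Fold changes near that of the member follow from this way of choosing, and with 4 libraries such a likeness describes these libraries only.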

How the data were processed

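The authors deposited whole-number counts per mature miRNA name and a CPM table. The deposited CPM equal the count per 1000000 counts of the library, within 0.0001 CPM in 100% of values. Per the labels' protocols, New England Biolabs small RNA reagents and 1 µg of total RNA went into each library. The submitters' processing notes name bcl2fastq 2.18. Aligner, counter, annotation and build were not given in the sources used here.

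The sample titles gave groups and replicate numbers. Since separate cultures are not stated, p-values reflect only how far these libraries spread, and that spread may be technical. Replicates differed by more than sampling noise (chi-square per degree of freedom 7.51 for entinostat and 5.93 for DMSO), and none were merged. Counts were TMM-scaled and all miRNAs passing filterByExpr (minimum count 10, minimum total 15) were tested by the quasi-likelihood method of edgeR 4.0.16 (R 4.3.3) on treatment alone. The test was also run on simulated data, with the same spread set for all miRNAs and with changes larger than those of the members. That run does not show how well the test performs on these libraries. Those named in full were the 3 members, the 4 of highest level in the p53 list, up to 4 of the epithelial list, the markers of other cell types, 2 neighbours in level on each side and the 3 most alike. Members and lists were chosen with earlier results of these data known. The alternatives used DESeq2 1.42.0 and limma 3.58.1. Of 826 names, 729 matched a RefSeq mature miRNA. Exact (Clopper-Pearson) intervals and the permutation test were computed with SciPy 1.17.1 in Python 3.11.15. The limit for a count of 0 was set at 3 counts.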

Additional observations from a re-analysis of the deposited data

How the results depend on the processing

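In 15 alternatives each (scaling, low-count filter, DESeq2, limma-voom, replicate block, limma-trend on the authors' deposited CPM plus 1 or 0.5, each library left out), miR-192-5p kept its direction and was not called, at -0.29 to -0.08 log2 units with adjusted p of 0.598 to 0.999. In the same alternatives miR-194-5p lay at 0.31 to 0.47, with adjusted p of 0.451 to 0.999. The log2 ratio difference lay at -0.62 to -0.46 in its 8 alternatives, of which 1 (the difference of the fitted log2 fold changes, -0.55) was added after seeing the data. Another of them, the replicate block, leaves this difference unchanged by construction. Leaving out each library in turn gave 0 to 5 called miRNAs, the 5 without entinostat replicate 1, and 0 in the other 11 alternatives. The p53-linked median ran from -0.045 to 0.39 with 1 library left out, the lowest without entinostat replicate 2. These fits took 7 to 11 of the listed miRNAs in place of 8, as the low-count filter was run again. The same median was 0.40 with upper quartile factors, which put the median of all tested miRNAs at 0.12 against 0.00466. With DESeq2, which took all 13 listed miRNAs in place of 8, it was 0.38. The epithelial median was 0.59 with DESeq2, over 7 miRNAs in place of 2, and 0.11 to 0.52 with 1 library left out. The cause of the shifts with 1 library left out was not tested. A fit with 1 library in a treatment assumes that it varies like the others. No label says that the replicate numbers pair libraries, and the deviations of same-numbered libraries correlated at -0.13 over 236 miRNAs of 100 CPM or more. With a replicate block, 0 miRNAs were called, and miR-192-5p lay at -0.19 and miR-194-5p at 0.35. The log2 ratio difference stayed at -0.54, which a block cannot move. The crossed pairing, added after seeing the data, also called 0, at 32 unadjusted p under 0.05 against 27 without a block. Depth limits miR-194-3p most, with 0 to 3 counts per library.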

Other observations

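Markers of blood cells and serum were followed because the cells grew in serum-supplemented medium. Of 6 such names (miR-451a, miR-144, miR-486, miR-223, miR-142 and miR-150), only 2, miR-486 and miR-150, had a mature miRNA in the table. The red cell miRNA miR-486-5p was at 187 and 241 CPM with entinostat and 231 and 217 CPM with DMSO, a log2 fold change of -0.06 (95% interval -0.42 to 0.31), and the treatments overlapped. The lymphocyte miRNA miR-150-5p had 3 and 0 counts with entinostat and 0 and 2 counts with DMSO. The summed counts of this list were 105 and 183 with entinostat and 216 and 124 with DMSO. Nearly all were of miR-486-5p, with 102 and 183 with entinostat and 216 and 122 with DMSO, so the sum describes that miRNA. The part of such serum or blood miRNAs in the levels of miR-192-5p and miR-194-5p was not tested.

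Markers of lung and other epithelium were low in this carcinoma line. Of 7 names, 4 had a mature miRNA in the table, and their counts summed to 42 and 45 with entinostat and 53 and 23 with DMSO. Of these, miR-200c-3p and the keratinocyte miRNA miR-203a-3p were tested, with log2 fold changes of 0.57 and -0.46 (95% interval -1.76 to 0.85 for the second), and 0 were called. The epithelial miR-205-5p had 9 and 4 counts with entinostat and 0 and 2 counts with DMSO. Most of the 7 names are also in the list of digestive, liver and kidney epithelium. Both sums thus hold the counts of miR-200c-3p, 23 and 35 with entinostat and 31 and 14 with DMSO, and are not separate observations. Both miR-885 arms, of the hepatocyte list, had 0 to 5 counts in each library.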
